A study of Mus musculus with 2 samples.

Results

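Scavenger receptors and receptors for apoptotic cells were followed through 9 genes: Mrc1, Stab1, Msr1, Cd163, Cd36, Marco, Timd4, Mertk and Axl. They were found by symbol among the 32285 genes of the deposited matrices, and all 9 were present. The cells were leukocytes selected with CD45 beads from brain tumours of the mouse glioma line CT-2A, 14 days after the implant. A single library came from wildtype mice and 1 from Glut5 KO mice, which lack the fructose transporter encoded by Slc2a5, and 16000 cells were loaded for each. Both groups carried the same tumour line. The sources used here give no strain, age or number of animals and do not say which exons were deleted. The labels call the second group KO, whereas the design text speaks of a knockdown.

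Scavenger receptors bind modified lipoproteins, microbial surfaces and cell debris and carry them into lysosomes. Receptors for apoptotic cells recognise phosphatidylserine on a dying cell, either directly, as Timd4 and Stab1 do, or through bridging proteins such as Gas6 and Pros1, which bind the TAM receptor tyrosine kinases Tyro3, Axl and Mertk. In the brain, Mertk is a known receptor of microglia, and Mrc1 and Cd163 are used as markers of the macrophages that line its borders.

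Since each genotype has 1 library, none of the differences could be checked on replicates, and genotype and library cannot be told apart. The kept barcodes were 11473 wildtype and 12112 Glut5 KO, with 116089616 and 96803335 UMIs (unique transcript tags) and medians of 8682 and 6523.5 UMIs per cell. The libraries shared 188 barcode sequences. In both, some cells had UMIs of Y-linked genes but not Xist (3620 and 2646; "Y-linked UMIs alone") and others the reverse (2891 and 3473; "Xist UMIs alone"), in different proportions, although the sample titles name a single mouse, so more than 1 animal went into each. Slc2a5 had 384 UMIs in the wildtype library and 1 in the Glut5 KO library. Levels are UMIs summed over a class of cells per 1000000 UMIs of that class (CPM), and brackets hold exact 95% intervals that cover counting error only. Levels were not divided by gene length, so each gene is compared only with itself.

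Cells were put in classes by marker genes, and each name carries -like since only transcripts define it. The classes the results turn on were macrophage-like cells (3667 wildtype and 3029 Glut5 KO), microglia-like cells (1608 and 1426), monocyte-like cells (1715 and 1723) and a small class of border-associated macrophage-like cells (79 and 26). Class limits were cuts on a continuous score, and 482 wildtype and 411 Glut5 KO macrophage-like cells lay within 0.1 of the cut. Counting error does not cover that choice, so values that change with the limits are given beside the results.

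The members differed in the classes that led. Mrc1 and Stab1 were highest in border-associated macrophage-like cells and next in macrophage-like or microglia-like cells. Mertk led in microglia-like cells, while Axl led in monocyte-like cells. Cd36 was highest in cDC1-like cells (type 1 conventional dendritic cells), microglia-like and border-associated macrophage-like cells, and Timd4 in cDC2-like (type 2) and migratory dendritic cell-like cells. Msr1 was spread over all phagocyte classes, and Cd163 and Marco were nearly absent from the suspension.

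**Figure D1:**
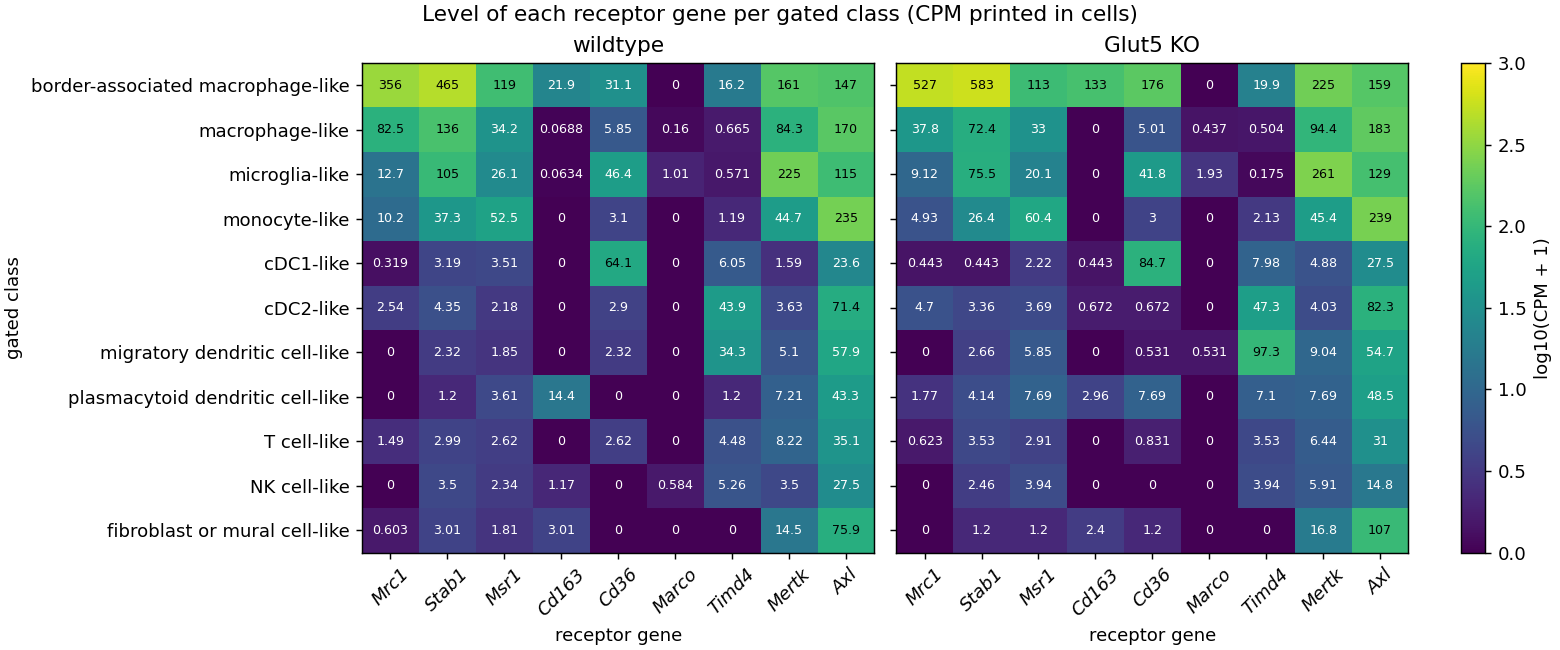
Level of each of the 9 receptor genes (columns) in 11 gated classes (rows) in the wildtype and Glut5 KO libraries, as CPM printed in each cell and log10(CPM + 1) as colour. Mrc1 in macrophage-like cells is 82.5 CPM in wildtype and 37.8 in Glut5 KO, whereas Mertk in microglia-like cells is 225 and 261.

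Mrc1 (ENSMUSG00000026712, chr2:14229392-14332057, plus strand, GRCm38) encodes the mannose receptor CD206, which takes up glycoproteins with mannose ends. In macrophage-like cells it stood at 82.5 CPM [79.8 to 85.2] in wildtype, from 3598 UMIs in 1482 cells. In Glut5 KO it stood at 37.8 CPM [35.6 to 40], from 1124 UMIs in 558 cells. The Glut5 KO level was 2.18-fold lower [2.04 to 2.34], a log2 ratio of -1.13, and the intervals did not overlap. The UMIs were spread over many cells in both libraries: the 3 highest cells held 1.31% of them in wildtype and 3.2% in Glut5 KO. At least 3 Mrc1 UMIs were found in 13% of the wildtype and in 4.46% of the Glut5 KO macrophage-like cells.

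Stab1 (ENSMUSG00000042286, chr14:31139013-31168641, minus strand), the gene of stabilin-1, a receptor for acetylated lipoprotein and phosphatidylserine, moved the same way. In macrophage-like cells it was at 136 CPM [133 to 140] in wildtype, from 5937 UMIs in 2009 cells. The Glut5 KO value was 72.4 CPM [69.4 to 75.5], from 2155 UMIs in 1033 cells. That was 1.88-fold lower [1.79 to 1.98], a log2 ratio of -0.91. Stab1 overlaps Nt5dc2 on the opposite strand, and whether the counting used strand is not given in the sources used here.

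Among 13304 genes with at least 20 UMIs over both libraries in macrophage-like cells, 5.62% were at least 1.5-fold lower in Glut5 KO and 6.51% at least 1.5-fold higher. Of the 8 members measured there, Mrc1 and Stab1 were past that fold downwards and Marco upwards. The median log2 ratio of the 8 was -0.14, against -0.06 over all genes. The Marco value rests on 7 wildtype UMIs in 6 cells and 13 Glut5 KO UMIs in 2 cells, of which 12 lay in 1 cell, and without the highest cell of each library the ratio turned to -1.32 on the log2 scale, from 5 or fewer UMIs in each.

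The Mrc1 difference changed with monocyte markers. The summed level of the 8 monocyte markers in macrophage-like cells was 618 CPM in wildtype and 1063 CPM in Glut5 KO, with all 8 detected in both. In the 572 wildtype and 382 Glut5 KO macrophage-like cells without any UMI of these markers, Mrc1 was at 108 CPM [99.3 to 118] and 76.4 CPM [64.6 to 89.7]. That log2 ratio was -0.50, no longer past 1.5-fold. In the macrophage-like cells with at least 1 such UMI, Mrc1 was at 79.3 and 35.1 CPM, a log2 ratio of -1.18. Cells without monocyte-marker UMIs also differed in depth, with medians of 7756.5 UMIs in wildtype and 2045 in Glut5 KO. Stab1 in the cells without monocyte markers was at 216 CPM [203 to 230] and 117 CPM [102 to 133], a log2 ratio of -0.89, close to its value over the whole class. The part of the monocyte markers in the Mrc1 result was not tested.

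Markers of other cell types in the class ran in both directions. The 7 border-associated macrophage markers summed to 57.4 CPM in wildtype and 45.5 CPM in Glut5 KO macrophage-like cells, with Lyve1, Cd209f and Cd209g at 0 in both. In macrophage-like cells without any UMI of these markers (2606 and 2410), Mrc1 was at 58.6 and 26.4 CPM and Stab1 at 108 and 55.7 CPM, log2 ratios of -1.15 and -0.96. The 10 microglia markers summed to 2855 CPM in wildtype and 2312 CPM in Glut5 KO, all 10 detected in both. Lower in level but higher in Glut5 KO were the 6 neural markers, at 18.2 and 34.3 CPM with Mog at 0 in both, and the 6 fibroblast or mural cell markers, at 3.51 and 7.39 CPM. The part of these lists in the result was not tested.

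**Figure D2:**
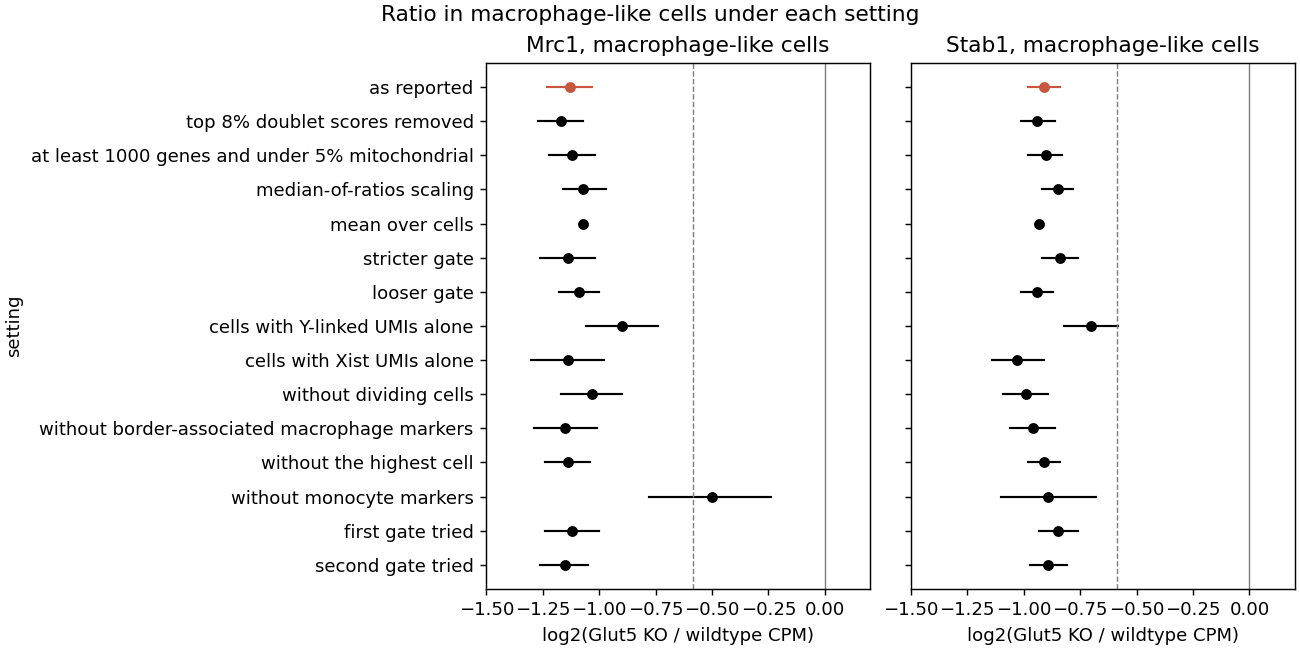
Log2 ratio of Glut5 KO over wildtype for Mrc1 and Stab1 in macrophage-like cells (horizontal axis) under each way of choosing or counting cells (rows), points with 95% counting intervals where these were computed. The dashed line marks 1.5-fold lower, and Mrc1 without monocyte markers (-0.50) is the only point to its right.

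Depth differed between the libraries, so cells were also thinned to 1000 UMIs each, leaving out 64 wildtype and 171 Glut5 KO macrophage-like cells. At that depth a Mrc1 UMI was found in 6.27% [5.50 to 7.11] of 3603 wildtype and 3.43% [2.79 to 4.16] of 2858 Glut5 KO macrophage-like cells. Without thinning the shares were 40.4% and 18.4%, at median depths of 11385 and 9509 UMIs. The share in T cell-like cells, which should lack the gene, was 1.34% of 299 wildtype and 0.350% of 571 Glut5 KO cells without thinning, at medians of 6182 and 6085 UMIs. For Stab1 the thinned shares of macrophage-like cells were 10.7% [9.70 to 11.7] and 5.63% [4.82 to 6.54]. Without thinning, 2009 of 3667 wildtype and 1033 of 3029 Glut5 KO macrophage-like cells had a Stab1 UMI, against 2.68% and 2.63% of T cell-like cells. The T cell-like shares without thinning are at a greater depth than the thinned shares and cannot be set against them. The shares thus differed in the direction of the CPM levels for both genes.

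In macrophage-like cells a Stab1 UMI was found more often in cells with a Mrc1 UMI than in cells without one. After thinning to 2000 UMIs, 31.9% of the 439 wildtype macrophage-like cells with a Mrc1 UMI also had a Stab1 UMI, against 18.0% of those without. In Glut5 KO the shares were 20.9% of 153 cells and 10.5%. Msr1 UMIs were found in 9.11% of the wildtype Mrc1 cells against 5.55% of the others, and in 10.5% against 6.23% in Glut5 KO. These shares describe cells of 1 library each and carry no test.

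Mrc1 and Stab1 were lower in the Glut5 KO library in both sets of sex-linked UMIs. Among macrophage-like cells with Y-linked UMIs alone (1342 and 679), Mrc1 was at 99.0 CPM in wildtype and 53.1 CPM in Glut5 KO. Among those with Xist UMIs alone (1070 and 1086) it was at 75.1 and 34.1 CPM. Stab1 was at 147 and 90.6 CPM in the first set and at 141 and 69.4 CPM in the second.

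In microglia-like cells Stab1 was lower as well, by less. It stood at 105 CPM [100 to 110] in wildtype and 75.5 CPM [70.6 to 80.7] in Glut5 KO, a ratio of 0.719 [0.661 to 0.781]. Stab1 was thus 1.30-fold higher in macrophage-like than in microglia-like cells in wildtype, whereas in Glut5 KO the intervals of the 2 classes overlapped (72.4 and 75.5 CPM). Mrc1 in microglia-like cells was low, at 12.7 CPM [11.0 to 14.6] in wildtype and 9.12 CPM [7.45 to 11.1] in Glut5 KO, from 201 and 104 UMIs. Its direction there was not stable: 1 Glut5 KO cell held 22 of the 104 UMIs, and the log2 ratio was -0.48 as summed, -0.73 without the highest cell of each library and 0.34 as a mean over cells.

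In monocyte-like cells Mrc1 was at 10.2 CPM [8.41 to 12.3] in wildtype and 4.93 CPM [3.67 to 6.48] in Glut5 KO, a log2 ratio of -1.04. A single wildtype cell held 29 of the 112 UMIs, and without the highest cell of each library the levels were 7.59 and 4.36 CPM, a log2 ratio of -0.79. Among cells with Xist UMIs alone the order turned, with 3.74 CPM [1.71 to 7.10] in wildtype and 7.97 CPM [5.11 to 11.9] in Glut5 KO. Those intervals overlapped and rest on 9 and 24 UMIs. Stab1 was at 37.3 CPM [33.8 to 41.1] and 26.4 CPM [23.4 to 29.7]. Mrc1 was the only 1 of 7 members measured in monocyte-like cells to lie at least 1.5-fold lower, and Timd4, with 13 and 22 UMIs, the only 1 at least 1.5-fold higher, where 5.33% and 4.80% of 11427 genes did so. In microglia-like cells none of 7 members was at least 1.5-fold lower and Marco alone was higher, against 7.85% and 4.54% of 12235 genes.

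Barcodes outside the classes showed the same direction. The 1966 wildtype and 2693 Glut5 KO kept barcodes that no class took held 20% and 19.7% of all Mrc1 UMIs. Their Mrc1 level was 74.4 CPM [70.3 to 78.6] in wildtype and 28.0 CPM [25.3 to 30.9] in Glut5 KO. Over all kept barcodes Mrc1 was at 52.9 and 21.0 CPM and Stab1 at 101 and 48.6 CPM, values that also carry the different make-up of the libraries.

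Border-associated macrophage-like cells had the highest Mrc1 and Stab1 levels, and here the direction differed between versions of the class limits. The 79 wildtype and 26 Glut5 KO cells held Mrc1 at 356 CPM [326 to 389] and 527 CPM [448 to 615], and Stab1 at 465 CPM [430 to 502] and 583 CPM [500 to 676]. The log2 ratios were 0.57 and 0.33, both higher in Glut5 KO. Under 2 earlier versions of the limits they were -0.38 and -0.70 for Mrc1 and -0.36 and -0.70 for Stab1. Those versions differed in their rules and took in more cells, 170 and 90 or 317 and 270. The stricter and looser limits reversed no ratio whose counting interval excluded 0. The summed level of the class's own 7 markers also differed, at 863 CPM in wildtype and 1710 CPM in Glut5 KO. Mrc1 and Stab1 were themselves among the 10 genes highest in this class over the rest of the cells. In Glut5 KO 1 cell held 31 of the 159 Mrc1 UMIs, and the 3 highest cells held 38.4%, against 11.9% in wildtype. For Stab1 the 3 highest cells held 27.3% in Glut5 KO and 9.56% in wildtype. At least 3 Mrc1 UMIs were found in 72.2% of wildtype and 73.1% of Glut5 KO cells, and at least 10 in 24.1% and 15.4%. Median depths were 17518 and 9932.5 UMIs.

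The sequence before the start of Mrc1 and of Stab1 is shown because these 2 genes lay lower together, and that of Timd4 because its classes were others. Each is the 250 bases before the RefSeq start, written along the gene's strand (GRCm38.p6), at chr2:14229164-14229413 on the plus strand for Mrc1, chr14:31168642-31168891 on the minus strand for Stab1 and chr11:46810549-46810798 on the plus strand for Timd4. Capitals mark matches on either strand to the motifs searched.
Mrc1: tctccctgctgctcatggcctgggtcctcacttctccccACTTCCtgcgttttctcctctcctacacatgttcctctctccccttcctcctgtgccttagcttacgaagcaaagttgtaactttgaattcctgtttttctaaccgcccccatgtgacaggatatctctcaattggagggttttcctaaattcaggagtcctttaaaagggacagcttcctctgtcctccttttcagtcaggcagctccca
Stab1: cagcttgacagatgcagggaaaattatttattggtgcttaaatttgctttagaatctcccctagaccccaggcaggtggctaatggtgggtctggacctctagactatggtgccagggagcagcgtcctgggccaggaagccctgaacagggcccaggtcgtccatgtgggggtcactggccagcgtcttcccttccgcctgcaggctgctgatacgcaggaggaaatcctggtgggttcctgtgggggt
Timd4: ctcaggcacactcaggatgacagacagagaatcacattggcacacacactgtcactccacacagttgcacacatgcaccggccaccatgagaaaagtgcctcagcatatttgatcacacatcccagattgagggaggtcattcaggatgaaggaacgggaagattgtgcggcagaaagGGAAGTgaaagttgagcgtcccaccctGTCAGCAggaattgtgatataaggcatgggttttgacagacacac
The motifs were the PU.1 box GAGGAAGT, the ETS core GGAAGT that it contains, the MAF half-site TGCTGAC and the STAT6-type palindrome, in which GAA follows TTC after any 4 bases. Of 32851 RefSeq promoters of this length, 2.44%, 19.7%, 3.81% and 5.85% held them in that order. Mrc1 had 1 ETS core, at bases 40 to 45. Timd4 had 1 ETS core, at bases 179 to 184, and 1 MAF half-site, at bases 206 to 212, while these letters were not found in the Stab1 window. The RefSeq promoter table used here matched 8 of the 9 members, without Msr1.

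Msr1 (ENSMUSG00000025044, chr8:39581685-39642673, minus strand) encodes the class A scavenger receptor for modified lipoproteins. It was highest in border-associated macrophage-like cells, at 119 CPM [101 to 138] in wildtype and 113 CPM [78.0 to 157] in Glut5 KO. Monocyte-like cells followed at 52.5 CPM [48.3 to 56.9] and 60.4 CPM [55.8 to 65.4], then macrophage-like cells at 34.2 CPM [32.5 to 36.0] and 33.0 CPM [31.0 to 35.2]. Microglia-like cells were at 26.1 CPM [23.7 to 28.8] and 20.1 CPM [17.6 to 22.9]. The order of these 4 classes was the same in both libraries, with intervals that did not overlap between neighbours. Msr1 in macrophage-like cells differed between the genotypes by less than counting error, with a ratio of 0.966 [0.890 to 1.05].

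The small Msr1 differences in the other classes ran in both directions. The ratio was 1.15 [1.03 to 1.29] in monocyte-like and 0.769 [0.651 to 0.906] in microglia-like cells. The microglia-like difference was present in cells with Y-linked UMIs alone, at 38.5 and 19.1 CPM. In cells with Xist UMIs alone no difference beyond counting error was seen, at 19.3 CPM [16.0 to 22.9] and 20.7 CPM [17.0 to 24.9].

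Cd163 (ENSMUSG00000008845, chr6:124304656-124330527, plus strand), the receptor for haemoglobin bound to haptoglobin, was rare, with 67 UMIs in 41 wildtype cells and 57 UMIs in 27 Glut5 KO cells. Border-associated macrophage-like cells held 46.3% and 70.2% of them. Their level was 21.9 CPM [14.9 to 31.1] in wildtype, from 31 UMIs in 14 cells, and 133 CPM [94.7 to 180] in Glut5 KO, from 40 UMIs in 11 cells. The ratio was 6.06 [3.70 to 10.0], a log2 ratio of 2.59. It was 1.58 and 1.29 on the log2 scale under the 2 earlier versions of the class limits. The 3 highest cells held 15 of the 31 wildtype and 24 of the 40 Glut5 KO UMIs. The class's own 7 markers were higher in Glut5 KO as well, at 863 and 1710 CPM, and their part in the ratio was not tested. Plasmacytoid dendritic cell-like cells were next, with 12 UMIs in 7 wildtype cells and 5 UMIs in 5 Glut5 KO cells. In macrophage-like cells 0 UMIs were found in Glut5 KO, which allows up to 0.101 CPM, and 0.0688 CPM in wildtype.

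Cd36 (ENSMUSG00000002944, chr5:17781690-17888801, minus strand) encodes a receptor for fatty acids, oxidised lipoprotein and apoptotic cells. It was highest in cDC1-like, microglia-like and border-associated macrophage-like cells. In cDC1-like cells it was at 64.1 CPM [55.5 to 73.5] in wildtype and 84.7 CPM [73.1 to 97.6] in Glut5 KO, a ratio of 1.32 [1.08 to 1.62], with a UMI in 56.0% of 216 and 54.2% of 155 cells. Without dividing cells that log2 ratio was 0.01. In cDC2-like cells Cd36 had 8 UMIs in wildtype and 2 in Glut5 KO, and the wildtype level in cDC1-like cells was 22.1-fold that of cDC2-like cells.

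Microglia-like cells held the largest share of Cd36 UMIs, 44.9% in wildtype and 41.1% in Glut5 KO. Their level was 46.4 CPM [43.1 to 49.9] and 41.8 CPM [38.1 to 45.7], against 5.85 and 5.01 CPM in macrophage-like and 3.1 and 3.0 CPM in monocyte-like cells. Cd36 in microglia-like cells was thus 7.94-fold (wildtype) and 8.34-fold (Glut5 KO) above macrophage-like cells, whereas Mrc1 was 0.155 and 0.242 times the macrophage-like level there.

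Cd36 in microglia-like cells differed by sex-linked UMIs. In wildtype, cells with Y-linked UMIs alone (368) were at 82.5 CPM and cells with Xist UMIs alone (539) at 18.2 CPM. In Glut5 KO the values were 49.0 CPM (262 cells) and 41.0 CPM (488 cells). The Glut5 KO over wildtype log2 ratio was therefore -0.75 in the first set and 1.17 in the second. Microglia-like cells with both or neither (701 and 676) were at 46.7 and 36.0 CPM, and the ratio over all 3 sets was 0.90 [0.80 to 1.01]. Border-associated macrophage-like cells had Cd36 at 31.1 CPM in wildtype and 176 CPM in Glut5 KO, where 1 cell held 32 of 53 UMIs. Without the highest cell of each library the values were 27.2 and 75.3 CPM.

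**Figure D3:**
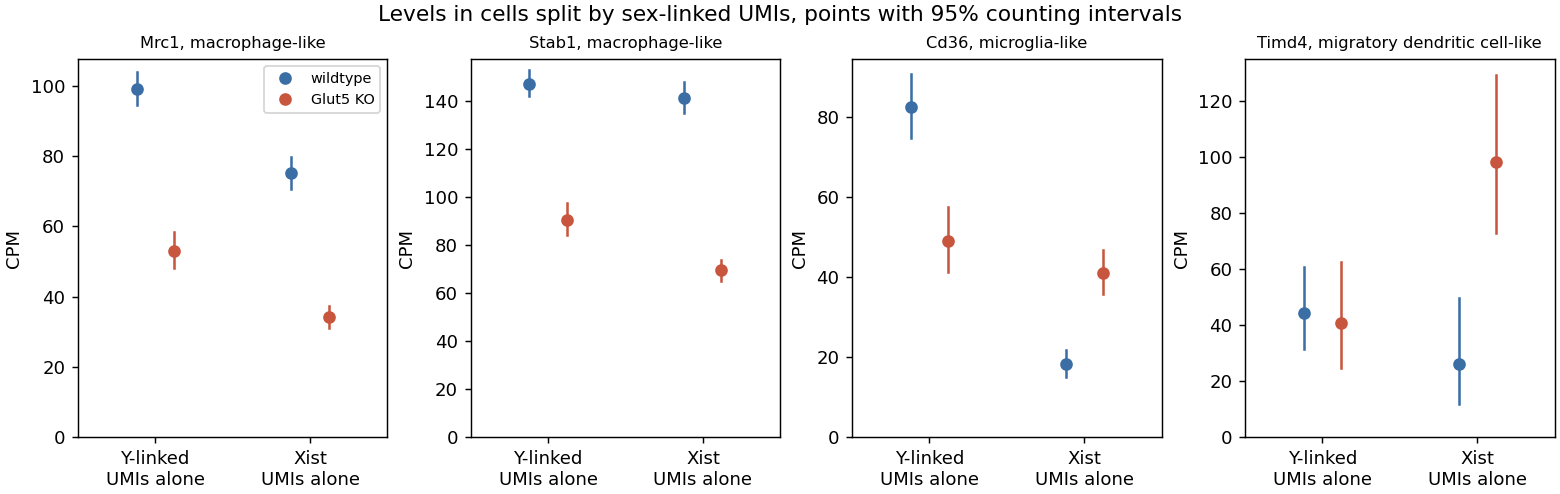
CPM (vertical axis, from 0) of Mrc1 and Stab1 in macrophage-like, Cd36 in microglia-like and Timd4 in migratory dendritic cell-like cells, for the sets with Y-linked or with Xist UMIs alone (horizontal axis), points with 95% counting intervals. Mrc1 and Stab1 are lower in Glut5 KO in both sets, while Cd36 is 82.5 against 49.0 CPM in the first and 18.2 against 41.0 in the second.

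Marco (ENSMUSG00000026390, chr1:120474538-120505024, minus strand), a class A scavenger receptor of some tissue macrophages, had 35 UMIs in the wildtype and 41 in the Glut5 KO library. Microglia-like cells held 16 and 22 of them, or 1.01 CPM [0.580 to 1.65] and 1.93 CPM [1.21 to 2.92], and 10 of the 22 lay in 1 cell. A difference between the genotypes was not detectable at this depth.

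Timd4 (ENSMUSG00000055546, chr11:46810800-46844332, plus strand) encodes TIM-4, which binds phosphatidylserine directly and is a marker of long-lived resident macrophages in many tissues. Here its level was highest in dendritic cells. In cDC2-like cells (272 and 274) it was at 43.9 CPM [36.4 to 52.4] in wildtype and 47.3 CPM [39.9 to 55.8] in Glut5 KO. In migratory dendritic cell-like cells (329 and 288) it was at 34.3 CPM [26.9 to 43.0], from 74 UMIs in 32 cells, and 97.3 CPM [83.7 to 112], from 183 UMIs in 43 cells. Macrophage-like and microglia-like cells were under 1 CPM in both libraries. Border-associated macrophage-like cells were at 16.2 CPM [10.3 to 24.4] in wildtype and 19.9 CPM [7.30 to 43.3] in Glut5 KO. These values rest on 23 and 6 UMIs, and 1 wildtype cell held 11 of the 23.

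The migratory dendritic cell-like difference was 2.84-fold [2.15 to 3.77], and 8.87% of 8792 genes were at least 1.5-fold higher and 5.23% lower there. Of the 3 members measured in this class, 2 were past 1.5-fold, both upwards: Timd4, and Mertk with 11 and 17 UMIs. Some marker lists of other cell types were also higher in Glut5 KO. The 8 B cell markers summed to 6.02 CPM in wildtype, with 2 detected, and 60.6 CPM in Glut5 KO, with all 8 detected. The 8 plasmacytoid dendritic cell markers summed to 91.7 and 208 CPM, all detected in both. Microglia (555 and 719 CPM) and plasma cell markers (82.9 and 133 CPM) were higher as well. Macrophage (1453 and 1355 CPM), cDC2 (372 and 359 CPM) and NK cell markers (66.3 and 55.3 CPM) were lower. The part of these lists in the Timd4 result was not tested. The Timd4 difference was not shared by all sets of cells. In the 115 wildtype and 60 Glut5 KO cells with Y-linked UMIs alone, Timd4 was at 44.2 CPM [31.3 to 60.7] and 40.6 CPM [24.8 to 62.6]. These intervals overlapped. With Xist UMIs alone (45 and 58) it was at 26.2 and 98.1 CPM, and with both or neither (169 and 170) at 28.3 and 129 CPM. Thinned to 1000 UMIs, a Timd4 UMI was found in 3.72% [1.93 to 6.40] of 323 wildtype and 6.69% [4.01 to 10.4] of 269 Glut5 KO cells, against 9.73% and 14.9% without thinning, so the thinned intervals overlapped. The share in T cell-like cells was 1.34% and 1.05% without thinning. In B cell-like cells, of which wildtype had 20 and Glut5 KO 276, Timd4 had 0 and 40 UMIs, 21 of them in 1 cell.

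Mertk (ENSMUSG00000014361, chr2:128698956-128802894, plus strand) encodes the TAM receptor that drives uptake of apoptotic cells by macrophages. It was highest in microglia-like cells, at 225 CPM [218 to 233] in wildtype and 261 CPM [252 to 271] in Glut5 KO. Macrophage-like cells were at 84.3 CPM [81.6 to 87.0] and 94.4 CPM [91.0 to 98.0] and monocyte-like cells at 44.7 CPM [40.8 to 48.8] and 45.4 CPM [41.3 to 49.6]. The microglia-like level was 2.67-fold and 2.77-fold that of macrophage-like cells. The intervals of border-associated macrophage-like cells (161 and 225 CPM) overlapped those of microglia-like cells in Glut5 KO but not in wildtype.

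Mertk was slightly higher in Glut5 KO in both macrophage classes of larger size. The ratio was 1.16 [1.10 to 1.22] in microglia-like and 1.12 [1.07 to 1.18] in macrophage-like cells, and 1.01 [0.892 to 1.15] in monocyte-like cells. None passed 1.5-fold, but in macrophage-like cells without monocyte markers Mertk was at 88.1 and 133 CPM, a ratio of 1.51 [1.29 to 1.77]. Thinned to 1000 UMIs, 17.5% [15.7 to 19.5] of wildtype and 20.8% [18.6 to 23.1] of Glut5 KO microglia-like cells had a Mertk UMI. Mertk overlaps the antisense gene Gm14011 on the other strand.

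Axl (ENSMUSG00000002602, chr7:25757273-25788705, minus strand), the TAM receptor often raised in inflamed tissue, ran in the opposite order to Mertk. Monocyte-like cells led at 235 CPM [226 to 244] in wildtype and 239 CPM [230 to 249] in Glut5 KO, followed by macrophage-like cells at 170 CPM [166 to 174] and 183 CPM [178 to 188]. Microglia-like cells were at 115 CPM [110 to 120] and 129 CPM [123 to 136]. The Glut5 KO over wildtype ratio lay between 1.02 and 1.12 in these 3 classes. Sets of monocyte-like cells differed: Axl was at 215 CPM [199 to 231] and 138 CPM [123 to 154] in those with Y-linked UMIs alone, a log2 ratio of -0.64, and at 282 CPM [261 to 304] and 311 CPM [292 to 332] in those with Xist UMIs alone. With both or neither it was at 226 and 240 CPM. In macrophage-like cells Axl was at 166 CPM [161 to 172] and 170 CPM [161 to 180] with Y-linked UMIs alone. It was at 167 CPM [160 to 174] and 201 CPM [193 to 208] with Xist UMIs alone, and at 179 and 165 CPM with both or neither. Dendritic cells had less, at 71.4 and 82.3 CPM in cDC2-like and 23.6 and 27.5 CPM in cDC1-like cells.

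Axl UMIs also appeared in lymphocyte classes. T cell-like cells were at 35.1 and 31.0 CPM, which is 20.7% and 16.9% of the macrophage-like level. The shares were 1.81% and 1.65% for Mrc1, 2.20% and 4.88% for Stab1, 7.65% and 8.81% for Msr1 and 9.76% and 6.82% for Mertk. Cd36 was at 44.7% and 16.6%, from 7 and 4 UMIs in T cell-like cells. NK cell-like cells were at 27.5 CPM [20.2 to 36.5] in wildtype and 14.8 CPM [9.97 to 21.1] in Glut5 KO, from 47 and 30 UMIs, where 6.67% of 9241 genes were at least 1.5-fold lower and 7.08% higher. In NK cell-like cells with Xist UMIs alone that order turned, at 12.1 and 22.5 CPM. Other phagocyte transcripts were also set against their macrophage-like level in T cell-like cells. C1qa, C1qb, C1qc and Apoe lay between 3.97% and 4.66% in wildtype and between 2.42% and 3.61% in Glut5 KO. Lyz2 was higher, at 9.51% and 8.68%. All 5 were below the shares of Axl. Barcodes that met the T cell-like limits but were rich in these 5 genes had been set apart as mixed. That rule holds down the T cell-like shares of the 5 genes but was not applied to Axl. The comparison therefore cannot show whether Axl in T cell-like cells exceeds the level of other phagocyte transcripts.

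Axl UMIs were found at similar rates in cells with and without a Mertk UMI, with differences in both directions. After thinning to 2000 UMIs, 29.9% of 509 wildtype macrophage-like cells with a Mertk UMI had an Axl UMI, against 28.9% of those without, and in Glut5 KO 31.0% of 432 against 27.4%. In microglia-like cells the shares were 16.0% against 17.8% and 16.7% against 21.3%, and in monocyte-like cells 40.0% against 34.4% and 36.3% against 35.6%.

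**Figure D4:**
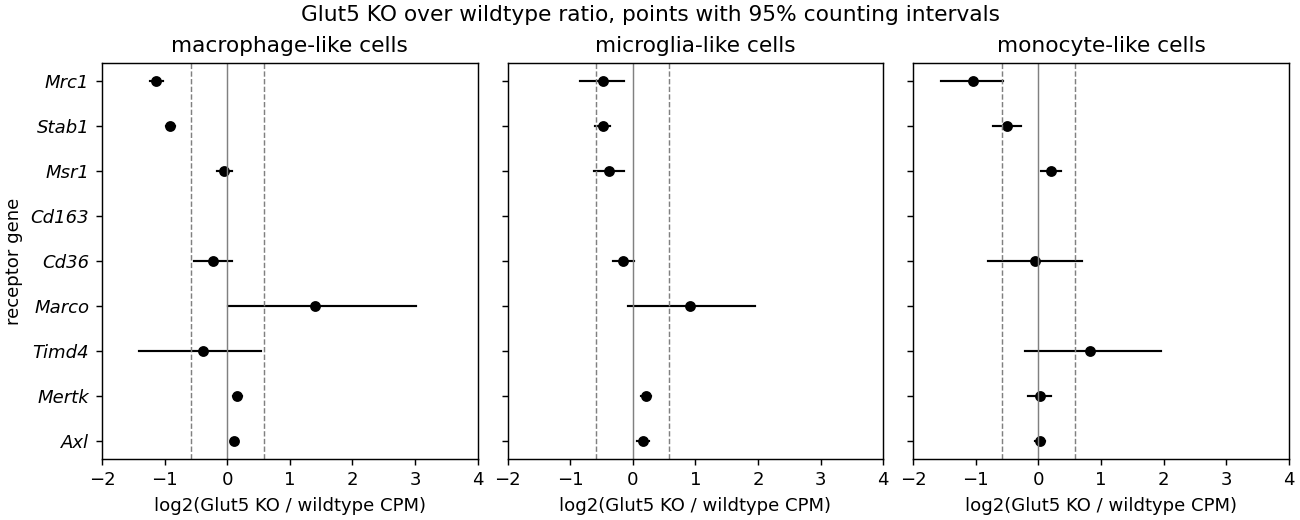
Log2 ratio of Glut5 KO over wildtype CPM (horizontal axis) for each receptor gene with at least 20 UMIs over both libraries, in macrophage-like, microglia-like and monocyte-like cells, points with 95% counting intervals. Dashed lines mark 1.5-fold in each direction. Mrc1 (-1.13) and Stab1 (-0.91) lie beyond the lower line in macrophage-like cells, while Mertk and Axl lie near 0 in all 3 classes.

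The partners of the TAM receptors differed by class. Gas6, the ligand of Axl and Mertk, was at 95.4 CPM in wildtype and 134 CPM in Glut5 KO microglia-like cells, a ratio of 1.41 [1.31 to 1.51]. In macrophage-like cells it was at 21.8 and 12.8 CPM, a ratio of 0.586 [0.519 to 0.661]. Pros1, protein S, was at 96.3 and 113 CPM in microglia-like and 24.9 and 18.4 CPM in macrophage-like cells. Mfge8, which links phosphatidylserine to integrins, was at 5.50 and 8.57 CPM in macrophage-like cells. Tyro3, the remaining TAM receptor, did not reach 20 UMIs in microglia-like, monocyte-like or macrophage-like cells.

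The counts of the lists that follow can be read against all genes. In macrophage-like cells 5.62% of genes were at least 1.5-fold lower and 6.51% higher, in microglia-like cells 7.85% and 4.54%, and in monocyte-like cells 5.33% and 4.80%, with medians over all genes of -0.06, -0.05 and -0.04 on the log2 scale. The lists are small, so 1 gene is a large share of each. Of 8 bridging molecules measured in macrophage-like cells, 1 (Gas6) was at least 1.5-fold lower and 1 (Mfge8) higher, with a list median of 0.13 on the log2 scale. In microglia-like cells 3 of 8 were lower and 1 higher, with a median of -0.29. There, Anxa1 was at 10.8 and 4.74 CPM, Lgals3 at 495 and 315 CPM and Thbs1 at 67.3 and 104 CPM. In monocyte-like cells 1 of 8 was lower and 0 higher, with a median of -0.06.

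Other scavenger receptors moved in both directions. In macrophage-like cells 2 of 12 were at least 1.5-fold lower and 3 higher, with a median of -0.06. The ratio intervals of Pla2r1 (9 and 13 UMIs), Ly75 (35 and 36) and Cd5l (42 and 17), counted among these, included 1. Of the 9 genes with at least 100 UMIs over both libraries, 1 was lower and 1 higher. Scarf1, a receptor for modified lipoprotein, was at 2.22 and 10.8 CPM, while Scarf2 was at 4.24 and 2.42 CPM and Lrp1, a large endocytic receptor, at 75.2 and 62.0 CPM. In microglia-like cells 1 of 12 was lower and 3 higher, with Olr1 at 7.93 and 18.9 CPM and Colec12 at 15.0 and 27.8 CPM. In monocyte-like cells 1 of 8 was lower and 1 higher, with Lrp1 at 141 and 93.0 CPM and Scarf1 at 12.5 and 22.7 CPM.

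Other receptors for apoptotic cells and the engulfment machinery changed little. Of 11 other receptors, 0 were lower and 1 higher in macrophage-like, 0 and 1 in microglia-like and 1 and 0 in monocyte-like cells. Itgb5, a subunit of the integrin that binds Mfge8, was at 368 and 297 CPM in macrophage-like and 247 and 161 CPM in monocyte-like cells. Of 14 engulfment genes none passed 1.5-fold in any of the 3 classes, with medians of -0.09, -0.04 and 0.02 in macrophage-like, microglia-like and monocyte-like cells. Dock1 was at 20.9 and 17.0 CPM and Rac2 at 563 and 494 CPM in macrophage-like cells.

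Lipid-sensing and haem-handling genes act after uptake. The haem list was close to level, with medians of -0.03, -0.04 and 0.02 in macrophage-like, microglia-like and monocyte-like cells. The lipid-sensing list had medians of 0.06, 0.15 and -0.22 in that order. In macrophage-like cells 0 of 9 lipid-sensing genes were lower and 1 higher, Nr1h3 (the liver X receptor alpha), at 36.2 and 58.1 CPM. In microglia-like cells 1 of 9 was lower and 0 higher, and Abca1, short of 1.5-fold, was at 141 and 190 CPM. In monocyte-like cells 1 of 9 was lower, Pparg, at 10.6 and 5.90 CPM. Of 8 haem and iron genes none passed 1.5-fold in macrophage-like or microglia-like cells, and Blvrb was at 173 and 131 CPM in macrophage-like cells. Hmox1, haem oxygenase, was at 151 and 178 CPM in macrophage-like and 108 and 156 CPM in monocyte-like cells.

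Of 6 genes of receptor shedding and TAM receptor brakes, 0 were lower and 1 higher in macrophage-like cells. That was Socs1, an inhibitor of cytokine signalling, at 38.6 and 76.8 CPM. Adam10, a protease that cuts cell-surface receptors, was at 67.9 and 60.3 CPM. Of 11 factors of macrophage identity none passed 1.5-fold in macrophage-like cells. Of 5 cell division genes all were at least 1.5-fold lower in microglia-like cells, with a median of -0.86, and 1 in macrophage-like cells, with a median of -0.57. None of the 5 passed in macrophage-like cells after median-of-ratios scaling. The list ran the other way in cDC2-like cells, with a median of 0.54, and in migratory dendritic cell-like cells, with a median of 0.76. Without dividing cells the macrophage-like log2 ratios were -1.03 for Mrc1 and -0.99 for Stab1.

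Across the 10 classes that held at least 50 cells of each library, the genes with the pattern most like each member were found by the Pearson r of log2(CPM + 10), taking the lower of both libraries. The classes share libraries and differ in depth, so r is a description. Stab1 was most like Abcc3 (r of 0.991 in wildtype and 0.994 in Glut5 KO), Rab3il1 and Slc11a1. Mrc1 was most like Ms4a14 (0.967 and 0.966), Vnn3 and Creg2. Msr1 was most like Siglec1 (0.983 and 0.976), C1rl and Bach2os, and Mertk like Ang (0.984 and 0.981), Itm2b and Ptgs1. Axl was most like Creb5 (0.941 and 0.935), Cpeb3 and Sat1, Cd36 like Rasgrp3 (0.941 and 0.911), Rab39 and Mctp1, and Timd4 like Ccl17 (0.945 and 0.95), Gosr2 and Adam23. Among the members themselves, Stab1 and Mertk were most alike (0.94 and 0.95), followed by Stab1 and Mrc1 (0.90 and 0.85).

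In cDC2-like cells Mrc1 was low and changed direction with the version of the class limits. It was at 2.54 and 4.70 CPM, from 7 and 14 UMIs, a log2 ratio of 0.84. In Glut5 KO its interval [2.57 to 7.89] lay above that of T cell-like cells [0.129 to 1.82], while in wildtype the intervals overlapped. Mrc1 was the only 1 of 5 members measured there past 1.5-fold, upwards, where 6.54% of 9430 genes were at least 1.5-fold higher and 5.45% lower. Under the 2 earlier versions, which left mixed barcodes in the class, the log2 ratio was -1.64 and -1.53. Barcodes that met the limits of a non-phagocyte class other than neutrophils were checked for C1qa, C1qb, C1qc, Lyz2 and Apoe. Those with at least 100 UMIs per 10000 of these genes were kept apart as mixed (711 wildtype and 695 Glut5 KO). They held Mrc1 at 39.4 and 17.6 CPM.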

How the data were processed

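Droplet single-cell RNA sequencing (a 10x 5' kit) was run on 2 libraries, wildtype and Glut5 KO, per the labels' protocols. The deposited matrices hold raw UMI counts for each gene in each barcode, per the file headers. Reads were aligned to mm10 with Cell Ranger, as version 3.1.0 per the submitters' processing notes and as version 7.0.1 per the file headers. The sources used here do not say whether reads in introns counted.

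Barcodes with at least 300 genes and under 10% mitochondrial UMIs were kept. Each was scored on 18 marker lists by its mean z-score. A lymphocyte, dendritic or other non-phagocyte class needed at least 3 detected markers and a lead of 0.2 over the next score. The 4 phagocyte classes needed at least 3 markers and a lead of 0.1 over the other phagocyte scores. They also needed either 100 UMIs per 10000 of 5 phagocyte genes or a phagocyte score that led all lists by 0.1. A barcode whose top score was a non-phagocyte list, but which missed the limits of that class, could thus enter a phagocyte class. Barcodes of non-phagocyte classes other than neutrophils with at least 100 UMIs per 10000 of 5 phagocyte genes were set apart as mixed. Stricter (0.4 and 0.3) and looser (0.1 and 0) leads were tried. The class limits are the last of 3 versions, and were kept after the members' levels under each had been seen. Both earlier versions, which used a lead of 0.2 throughout, are reported as alternatives. The first asked for 2 markers, and the second set no minimum of markers for phagocyte classes but required the 5 phagocyte genes. The first set no barcodes apart as mixed, and the second did so only for some classes. Doublets were not removed, and removing the top 8% of Scrublet scores in each library is an alternative.

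Counts were summed per class and library as CPM, and log2 ratios used each count plus 0.5. No test was run, as each group has 1 library. Intervals are exact 95% Poisson for levels, Clopper-Pearson for shares and conditional binomial for ratios, and cover counting error only. A level of 0 UMIs was given a limit of 3 counts. The call used is 1.5-fold among genes with at least 20 UMIs over both libraries. The ratio and call steps were tested on simulated data. All 9 members are described in the classes where they were found, and of each list the 2 highest and 2 lowest log2 ratios among genes with at least 100 UMIs, of which some are left out of the text, plus Gas6, Pros1, Mfge8 and Tyro3. The 3 most alike genes of each member with at least 20 CPM in a class are named. The members, lists and markers were chosen with earlier results of these data known. Positions of genes are from the GENCODE annotation of GRCm38, the build of mm10. Python 3.11.15, numpy 2.4.6, scipy 1.17.1, pandas 2.3.3 and scanpy 1.11.5 were used.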

Additional observations from a re-analysis of the deposited data

Results flagged for a closer look

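Several members differed between the genotypes in opposite directions in different sets of cells, by counting intervals that excluded no change in each. None of these differences between sets was tested, since each genotype has 1 library.

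For Mrc1 the log2 ratio (Glut5 KO over wildtype) was 0.57 in border-associated macrophage-like cells, against -0.48 in microglia-like, -1.04 in monocyte-like and -1.13 in macrophage-like cells. For Stab1 it was 0.33 in border-associated macrophage-like cells, against -0.48 in microglia-like, -0.50 in monocyte-like and -0.91 in macrophage-like cells. The border-associated values turned under both earlier versions of the class limits, as given above. In Glut5 KO they rest on 26 cells, of which 3 held 38.4% of the Mrc1 UMIs.

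Msr1 was higher in Glut5 KO in monocyte-like cells (0.20) and lower in microglia-like cells (-0.38). Axl was higher in microglia-like (0.17) and macrophage-like cells (0.11) and lower in NK cell-like cells (-0.89). The macrophage-like and NK cell-like differences were not shared by all sets of sex-linked UMIs, as given above. Cd36 in microglia-like cells was lower in Glut5 KO among cells with Y-linked UMIs alone (-0.75) and higher among cells with Xist UMIs alone (1.17).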

How the results depend on the processing

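In macrophage-like cells Mrc1 and Stab1 were lower in Glut5 KO under all 14 alternatives run on them. Mrc1 moved outside its counting interval to -0.90 on the log2 scale in cells with Y-linked UMIs alone and to -0.50 in cells without monocyte-marker UMIs. Stab1 moved to -0.84 with the stricter gate, -0.70 with Y-linked UMIs alone, -1.03 with Xist UMIs alone and -0.99 without dividing cells. The alternatives without marker UMIs, without the highest cell, with mixed barcodes and with both earlier gates were chosen after seeing the data.

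Among the 10 classes with at least 50 cells of each library, the one highest for each member in each library stayed highest with the stricter gate and without the top doublet scores. For log2 ratios whose counting interval excluded 0, directions turned as follows. Mrc1 in microglia-like cells went to 0.34 as a mean over cells and 0.07 with the second gate. With Xist UMIs alone, Msr1 in microglia-like cells went to 0.10, Mrc1 in monocyte-like cells to 1.04 and Axl in NK cell-like cells to 0.71. Timd4 in migratory dendritic cell-like cells went to -0.11 with Y-linked UMIs alone. In these sets the counting intervals of both libraries overlapped for Msr1, Mrc1 and Timd4. Marco in macrophage-like cells went to -1.32 without the highest cell. In border-associated macrophage-like cells Mrc1 went to -0.38 and -0.70 and Stab1 to -0.36 and -0.70 with the first and second gates. Ratios whose interval held 0 also turned, among them Cd36 in microglia-like cells (-0.15, and 1.17 with Xist UMIs alone), Axl in monocyte-like cells (0.03, and -0.64 with Y-linked UMIs alone) and Mrc1 in cDC2-like cells (0.84, and -1.64 and -1.53 with the first and second gates). The cause of these turns was not tested.

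Counts of members past 1.5-fold also moved. In microglia-like cells the 0 lower became 1 with the looser gate (Mrc1), Xist UMIs alone (Stab1), no dividing cells (Mrc1) or no highest cell (Mrc1), and 2 with Y-linked UMIs alone (Msr1 and Cd36). The 1 higher (Marco) became 0 as a mean over cells, with Y-linked UMIs alone and without the highest cell, and 2 with Xist UMIs alone. In monocyte-like cells the 1 lower became 2 with the stricter gate, 3 with Y-linked UMIs alone and 0 with Xist UMIs alone, and the 1 higher (Timd4) became 0 with the looser gate, Y-linked UMIs alone and the first gate. In macrophage-like cells the 1 higher (Marco) became 0 without the top doublet scores, at 1000 genes and 5% mitochondrial, with the stricter gate, Y-linked or Xist UMIs alone, no dividing cells, no border-associated markers, no highest cell and both earlier gates, and 2 as a mean over cells. Marco and Timd4 in these classes rest on too few UMIs to show a difference.

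No paired analysis was possible because each genotype has 1 library.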
